A study of Mus musculus with 12 samples.

Results

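Genes that mark and make melanocytes were followed here, chosen by name from the deposited expression matrix: Mitf, Kit, Tyr, Tyrp1, Dct, Pmel and Mlana, which are 7 of the 55487 genes listed. All 7 had a row in the matrix. RNA-seq of poly(A) RNA covered 12 libraries of cultured mouse cochlear cells, in 4 groups of 3 libraries that the labels call biological replicates. Every group started from spiral ganglia of postnatal day 4 mice on a mixed C57Bl6 and FVB/N background, of both sexes, with 6 to 8 mice pooled per dissection. FVB/N is an albino strain with a defective Tyr allele, and the Tyr genotype of the pooled mice was not given. The stria vascularis, which holds pigmented cells, was removed during dissection, and whether pigment cells remained in the dissected tissue was not reported.

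The first group, spheres, was grown in suspension in DMEM/F12 with EGF (20 ng/ml), bFGF (10 ng/ml), IGF (50 ng/ml) and heparan sulfate. For the other groups, spheres were plated on poly-L-ornithine and laminin and analysed after 14 days. SCDM was DMEM/F12 with BDNF and NT3, each at 50 ng/ml. SCDM/FGF was the same medium with bFGF at 100 ng/ml. FIBCL was Neurobasal medium with bFGF (listed in the labels at 50 ng/ml and again at 100 ng/ml), the adenylyl cyclase activator Forskolin (20 µM), ISX9 (20 µM), the BET bromodomain inhibitor I-BET (1 µM), the GSK3 inhibitor CHIR99021 (10 µM) and the cytokine LIF (1000 U/ml). FIBCL differed from both SCDM groups in base medium, growth factors and small molecules at once, so their parts in any difference cannot be told apart. The columns of the FIBCL libraries are headed FIBC in the matrix and were matched to FIBCL because the labels hold no other small molecule group. Whether LIF was in that medium therefore rests on the labels.

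Melanocytes arise from the neural crest, like the glia of peripheral ganglia, and in the cochlea they include the intermediate cells of the stria vascularis. MITF is the transcription factor that sets melanocyte identity and switches on the pigment genes. KIT is the receptor tyrosine kinase for KIT ligand, and melanoblasts need it to survive and migrate. TYR, TYRP1 and DCT are the melanosomal enzymes of melanin synthesis, PMEL forms the fibrils on which melanin is laid down, and MLANA is a small melanosome membrane protein. Mitf and Kit are not restricted to melanocytes: Mitf is also used by macrophages, osteoclasts and the retinal pigment epithelium, and Kit by mast cells, blood progenitors and some neurons.

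MITF binds an E-box, whose core CATGTG was searched on both strands in the 250 bases before each RefSeq start (GRCm38.p6). The table of promoters held 5 of the 7 genes, without Pmel and Mlana. The core was found before Tyr, Tyrp1 and Dct, and also before 12.3% of the 32851 promoters in the table. The longest run around the core that these 3 promoters share is GTCATGTGCT, which holds the core and was found on either strand in 51 promoters, or 0.155%. The run was derived from the 3 promoters, so its presence there is a description. The 3 sites are shown with 10 bases on each side because they are what the pigment enzyme genes have in common in sequence. Capitals mark the shared run, which begins 23 bases before the Tyr start at chr7:87493516-87493545 (minus strand), 48 bases before the Tyrp1 start at chr4:80834155-80834184 (plus strand) and 152 bases before the Dct start at chr14:118052379-118052408 (minus strand). These starts are those of RefSeq. For Tyrp1 the RefSeq start is 80834213, and GENCODE M21 begins the gene at 80834123, so the Tyrp1 site lies upstream of the first and inside the gene by the second.
Tyr: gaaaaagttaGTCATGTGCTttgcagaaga
Tyrp1: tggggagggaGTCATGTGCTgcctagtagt
Dct: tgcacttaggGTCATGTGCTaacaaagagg

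The full cAMP response element TGACGTCA, the same on both strands, was searched in the same windows. RefSeq gives Mitf 3 starts, and the element was found only in the window of the most downstream of them, 153 bases before the start. It was found in 1.55% of all promoters, and neither it nor the E-box core was found before the Kit starts. That Mitf window is shown because deposited values are per gene and do not separate the Mitf starts. It lies on the plus strand at chr6:97991533-97991782, and capitals mark the element.
Mitf: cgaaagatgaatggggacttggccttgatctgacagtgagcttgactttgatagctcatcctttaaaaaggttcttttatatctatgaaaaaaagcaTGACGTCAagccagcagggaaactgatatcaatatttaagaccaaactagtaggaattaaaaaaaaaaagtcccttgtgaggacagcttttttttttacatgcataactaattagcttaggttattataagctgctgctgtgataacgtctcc

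Values are TPM, transcript abundances per length and library total, from which sequencing depth cannot be read. From 21625 to 22281 genes were above 0 per library. The column sums were 899295 to 911076 TPM for FIBCL, against 982067 to 994845 for the rest. For the tests each library was rescaled by a trimmed mean ratio over genes that reached 5 TPM throughout, and differences are given on the log2(scaled TPM + 1) scale, which understates the change of low genes. Rescaling changed the balance of the comparisons. The median log2 difference of all genes tested between FIBCL and SCDM was −0.07 after rescaling and −0.40 as deposited. Between FIBCL and spheres it was −0.06 and −0.51. A gene was called at an adjusted p under 0.05 in limma (Benjamini-Hochberg, 16016 genes).

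Mitf was at 1.47 TPM or more in every library and Kit at 0.74 TPM or more, whereas of the 5 pigment genes only Pmel exceeded 1 TPM in any library. The levels were not apart in every group: Kit in SCDM/FGF, at 0.74 to 2.26 TPM, was in the range of Pmel there, at 0.55 to 2.03 TPM. Mitf was lower in FIBCL than in each other group, about 3-fold, and its level in SCDM, SCDM/FGF and spheres was within the spread of the libraries. Kit was high in spheres and FIBCL and low in SCDM and SCDM/FGF, so the 2 genes were ordered differently over the groups. Pmel, the one pigment gene tested, passed in no comparison, and Tyrp1 was listed at 0 in all 12 libraries.

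**Figure D1:**
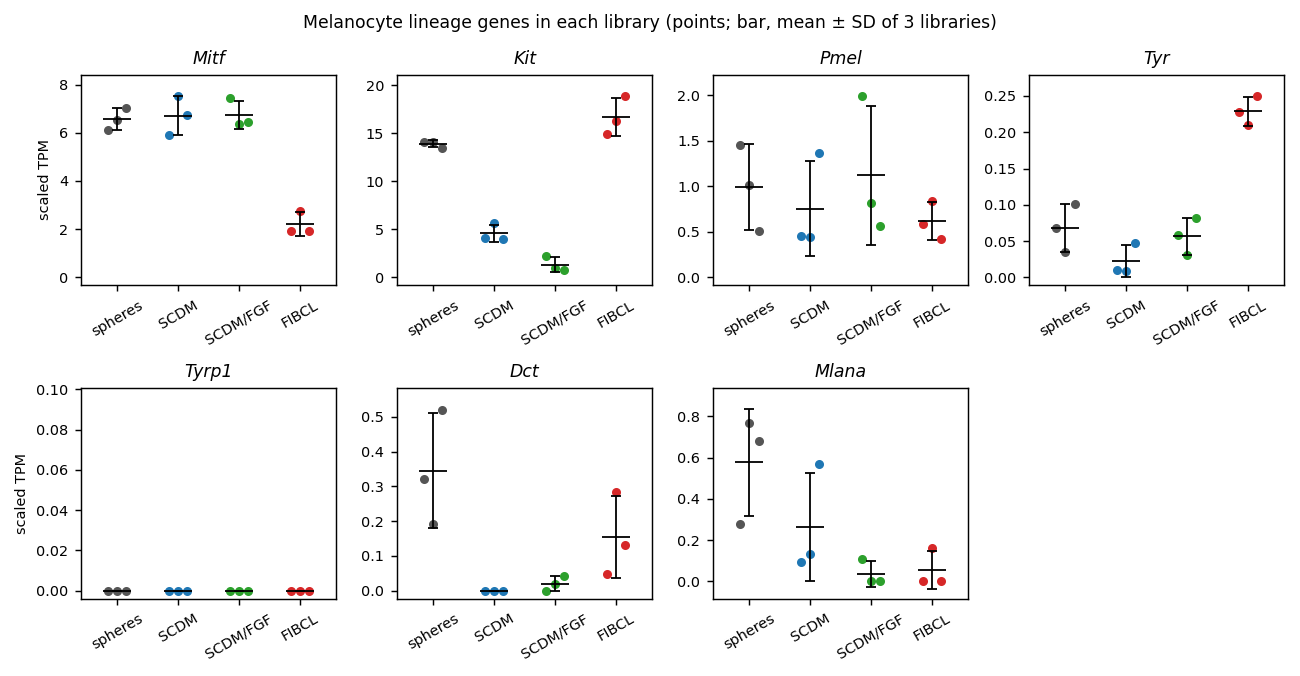
Level of each melanocyte gene in scaled TPM (vertical axes, each with its own range) in the 3 libraries of spheres, SCDM, SCDM/FGF and FIBCL; points are libraries and bars are the mean ± SD. The FIBCL points of Mitf lie below all others, the Kit points of SCDM and SCDM/FGF lie below those of spheres and FIBCL, and the pigment genes stay at or below 1.99.

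Mitf (ENSMUSG00000035158) lies at chr6:97807052-98021349 on the plus strand (GENCODE M21, GRCm38). Its deposited TPM was 7.23, 7.48 and 8.37 in spheres, 6.20, 8.04 and 7.12 in SCDM, 7.58, 6.33 and 6.34 in SCDM/FGF, and 1.62, 2.25 and 1.47 in FIBCL. The FIBCL libraries were all below the other 9, which overlapped each other. After rescaling the means were 6.56 ± 0.454 in spheres, 6.71 ± 0.803 in SCDM, 6.75 ± 0.589 in SCDM/FGF, with 2.21 ± 0.483 in FIBCL (SD, n = 3 each). The transcript was thus present in every library, at levels set against those of the pigment genes below.

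Mitf fell in FIBCL against SCDM by 1.27 on the log2 scale (SE 0.12, limma adjusted p = 2.02e-06), a ratio of 3.03 between the scaled means. Against SCDM/FGF it fell by 1.28 (adjusted p = 2.02e-06 in limma) and against spheres by 1.24 (adjusted p = 2.57e-06 in limma). These 3 comparisons share the FIBCL libraries. As deposited, without rescaling, the ratios were 4.00, 3.79 and 4.32. Among SCDM, SCDM/FGF and spheres no Mitf difference passed the test. The difference was 0.02 between SCDM and spheres (95% interval −0.24 to 0.29), 0.03 between SCDM/FGF and spheres (−0.23 to 0.30), and 0.01 between SCDM/FGF and SCDM (−0.26 to 0.28).

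Kit (ENSMUSG00000005672) lies at chr5:75574916-75656722 on the plus strand. Its deposited TPM was 16.67, 16.10 and 16.06 in spheres, 4.31, 6.03 and 4.24 in SCDM, 2.26, 0.95 and 0.74 in SCDM/FGF, and 12.48, 13.21 and 14.34 in FIBCL. No library of one group overlapped one of another, and the first SCDM/FGF library was more than 2 times the other two of its group. The scaled means were 13.9 ± 0.351 in spheres, 4.58 ± 0.912 in SCDM, 1.31 ± 0.792 in SCDM/FGF, with 16.7 ± 1.99 in FIBCL (SD, n = 3 each).

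Kit fell from spheres to SCDM by 1.43 on the log2 scale (SE 0.20, limma adjusted p = 0.000111), a ratio of 3.03 between the scaled means. It fell from spheres to SCDM/FGF by 2.74 (adjusted p = 6.17e-07 in limma), a ratio of 10.6. The medium with added bFGF was also lower than SCDM, by a difference of −1.31 (adjusted p = 0.000258 in limma) and a ratio of 3.50. Without the first SCDM/FGF library these 2 ratios to SCDM/FGF were 16.3 and 5.36. Each step in the order spheres, SCDM and SCDM/FGF was therefore larger than the spread between libraries.

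In FIBCL, Kit was higher than in SCDM by 1.67 on the log2 scale (SE 0.20, limma adjusted p = 1.43e-05), 3.64-fold in the scaled means. It was higher than in SCDM/FGF by 2.98 (adjusted p = 9.70e-08 in limma), or 12.8-fold, and 19.5-fold without the first SCDM/FGF library. The difference from spheres was 0.24 (95% interval −0.20 to 0.68, adjusted p = 0.299 in limma) and was not called. Its sign depended on the scaling: as deposited all 3 FIBCL libraries were below all 3 sphere libraries, with a difference of −0.27 (adjusted p = 0.237 in limma), and after rescaling all 3 were above. With only the libraries of these 2 groups in the model, the difference of 0.24 had an adjusted p of 0.0471 in limma. The order of spheres and FIBCL for Kit is therefore not settled by these values.

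The share of melanocyte genes called was set beside that of all genes. In FIBCL against SCDM, 2 of the 3 melanocyte genes tested were called (Kit higher, Mitf lower), where 71.7% of all genes tested were called, 32.7% higher and 39% lower. In FIBCL against SCDM/FGF it was the same 2 genes, where 70.7% of all genes were called, 32.5% higher and 38.2% lower. In FIBCL against spheres only Mitf was called, lower, where 71.6% of genes were, 32.9% higher and 38.7% lower. Kit alone was called, lower, in SCDM against spheres, where 50.3% of all genes were called, 24.5% higher and 25.8% lower. It was also the one called, lower, in SCDM/FGF against spheres, where 50.4% of genes were, 25% higher and 25.4% lower. The same held in SCDM/FGF against SCDM, where 43.1% of genes were called, 21.8% higher and 21.3% lower. When a log2 difference of at least 1.5 was also required, Kit was the one melanocyte gene called in FIBCL against SCDM, in FIBCL against SCDM/FGF and in SCDM/FGF against spheres, where 17.9%, 16.8% and 6.04% of all genes were called. By that rule none was called in FIBCL against spheres, SCDM against spheres and SCDM/FGF against SCDM, where 15.9%, 6.18% and 4.85% of genes were. Of the calls between FIBCL and SCDM, 45.6% were higher in FIBCL after rescaling and 26.9% as deposited. For FIBCL against SCDM/FGF these shares were 46.0% and 28.9%, and against spheres 46.0% and 21.4%. For SCDM against spheres they were 48.6% and 33.0%, for SCDM/FGF against spheres 49.6% and 26.9%, and for SCDM/FGF against SCDM 50.5% and 39.1%.

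Libraries of the groups compared did not overlap for 74.7% of genes tested in FIBCL against SCDM, 72.9% against SCDM/FGF and 75% against spheres. The share was 58.6% in SCDM against spheres, 57% in SCDM/FGF against spheres and 51.6% in SCDM/FGF against SCDM. The separation of the Kit libraries between all pairs of groups is to be read beside these shares.

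**Figure D2:**
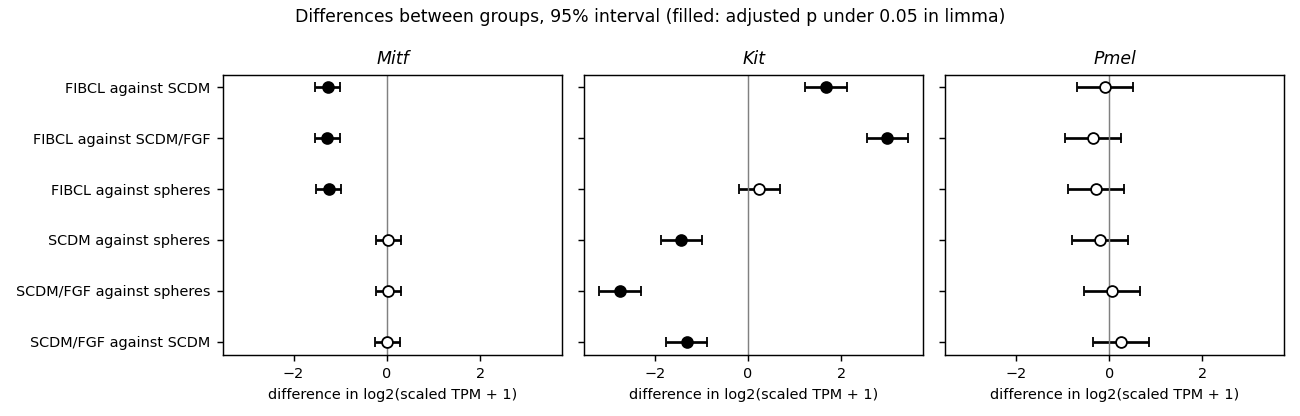
Difference in log2(scaled TPM + 1) (horizontal axis) for Mitf, Kit and Pmel in each of 6 comparisons (vertical axis), first group minus second, with 95% intervals; filled points had an adjusted p under 0.05 in limma. Mitf is at −1.27, −1.28 and −1.24 in the FIBCL comparisons and near 0 elsewhere, Kit spans −2.74 to 2.98, and every Pmel interval includes 0.

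Among the pigment genes, Pmel was the only one that reached 1 TPM in 3 or more libraries and so the only one tested. Pmel (ENSMUSG00000025359) lies at chr10:128704195-128720238 on the plus strand. Its deposited TPM was 1.71, 1.16 and 0.61 in spheres, 0.48, 0.48 and 1.44 in SCDM, 2.03, 0.81 and 0.55 in SCDM/FGF, and 0.49, 0.68 and 0.32 in FIBCL. The 4 groups overlapped, and the 4 libraries at or above 1 TPM were spread over 3 groups. Its log2 difference from SCDM in FIBCL was −0.09 (95% interval −0.70 to 0.52, adjusted p = 0.784 in limma), and the adjusted p in the other comparisons ran from 0.285 to 0.876.

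The ends of Pmel overlap those of a pair of genes on the other strand in the annotation. Cdk2, a cell cycle kinase gene, was at 8.24 to 29.4 TPM, and Dgka, a diacylglycerol kinase gene, at 8.26 to 19.7 TPM. The study's methods describe the alignment as run in an orientation mode but do not say whether genes were counted by strand, so the Pmel values are uncertain.

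Tyr (ENSMUSG00000004651), at chr7:87424771-87493512 on the minus strand, was at 0.08, 0.04 and 0.12 TPM in spheres. It was at 0.01, 0.01 and 0.05 TPM in SCDM, 0.06, 0.03 and 0.08 in SCDM/FGF and 0.19, 0.17 and 0.19 in FIBCL. The FIBCL libraries were the highest, all below 0.2 TPM as deposited. With no limit on low values, Tyr passed the test in FIBCL against SCDM by 0.27 on the log2 scale (adjusted p = 7.16e-05 in limma), against SCDM/FGF by 0.22 (adjusted p = 0.000338) and against spheres by 0.20 (adjusted p = 0.000554). At this setting 41.4%, 40.6% and 41.3% of all genes were called in the same comparisons. The number of reads behind such low values is unknown.

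Dct (ENSMUSG00000022129) lies at chr14:118012790-118052244 on the minus strand. It was at 0.38, 0.22 and 0.62 TPM in spheres, was listed at 0 in the 3 SCDM libraries, and was at 0, 0.02 and 0.04 in SCDM/FGF and at 0.04, 0.23 and 0.10 in FIBCL. The spheres were the highest group, with 1 FIBCL library above the lowest of them. With no limit on low values it was lower in SCDM than in spheres by a difference of −0.42 (adjusted p = 0.00488 in limma) and lower in SCDM/FGF by −0.39 (adjusted p = 0.00746), where 26.1% of all genes were called in each case.

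Mlana (ENSMUSG00000024806) lies at chr19:29697824-29708634 on the plus strand. It was at 0.33, 0.88 and 0.81 TPM in spheres, 0.10, 0.14 and 0.60 in SCDM, 0.11, 0 and 0 in SCDM/FGF, and 0, 0.13 and 0 in FIBCL. Again the spheres were the highest group, and 1 SCDM library lay within their range. With no limit on low values it was lower in FIBCL than in spheres by −0.57 (adjusted p = 0.0118 in limma) and lower in SCDM/FGF than in spheres by −0.59 (adjusted p = 0.0157). Of all genes, 41.3% and 26.1% were called in these comparisons. In SCDM/FGF against SCDM, where 21.7% of all genes were called at this setting, Kit remained the only one of the 7 called.

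Tyrp1 (ENSMUSG00000005994), at chr4:80834123-80851719 on the plus strand, was listed at 0 in every library. The 5 pigment genes together came to 1.81 to 2.12 scaled TPM per library in spheres, 0.562 to 1.97 in SCDM, 0.681 to 2.16 in SCDM/FGF, with 0.801 to 1.49 in FIBCL. After rescaling these ranges overlapped, apart from those of spheres and FIBCL. As deposited the sums were 2.16 to 2.5 TPM in spheres, 0.59 to 2.09 in SCDM, 0.67 to 2.2 in SCDM/FGF and 0.61 to 1.21 in FIBCL. The spheres were then apart from SCDM as well. Over all genes tested, libraries did not overlap for 75% in FIBCL against spheres and 58.6% in SCDM against spheres. Tyr, Tyrp1, Dct and Mlana were below 1 TPM in every library and Pmel reached at most 2.03 TPM, and calling the 7 genes a melanocyte lineage set describes what they are known for, not a cell type seen in these cultures. In bulk RNA, fewer cells of a type and less RNA per cell cannot be told apart.

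MITF has 3 close relatives in the MiT family, TFE3, TFEB and TFEC, which bind similar E-boxes. TFE3 and TFEB control lysosome genes in many cells. All 4 family genes, Mitf among them, were tested, and all 4 were called lower in FIBCL than in SCDM (median −0.81 on the log2 scale, against −0.07 for all genes). Of all genes tested, 39% were called lower there. Against SCDM/FGF 1 of the 4 was called higher and 2 lower, where 32.5% of all genes were higher and 38.2% lower. Against spheres 0 were higher and 3 lower, where 32.9% and 38.7% of all genes were. Tfec was at 2.37 to 2.92 TPM in SCDM, 2.99 to 3.93 in SCDM/FGF, 0.30 to 0.76 in spheres and 0.04 to 0.06 in FIBCL. It was lower in FIBCL than in SCDM by −1.68 (adjusted p = 3.48e-07 in limma) and higher in SCDM than in spheres by 1.29 (adjusted p = 8.84e-06), so its order differed from that of Mitf, which did not rise in SCDM.

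Tfeb was at 18.74 to 20.68 TPM in spheres, 11.78 to 13.70 in SCDM, 5.87 to 6.01 in SCDM/FGF, with 6.37 to 7.97 in FIBCL. In FIBCL it was lower than in spheres by −0.80 (adjusted p = 2.83e-06 in limma) and higher than in SCDM/FGF by 0.54 (adjusted p = 7.17e-05). Tfe3 had the highest level of the 4 genes per length in every group, at 22.23 to 38.33 TPM. Its difference between FIBCL and SCDM was −0.15 (adjusted p = 0.0457 in limma), and against SCDM/FGF and spheres it was −0.01 and −0.04 and not called. As deposited, Tfe3 was called lower in those comparisons too, at −0.31 (adjusted p = 0.00446) and −0.57 (adjusted p = 4.59e-05).

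**Figure D3:**
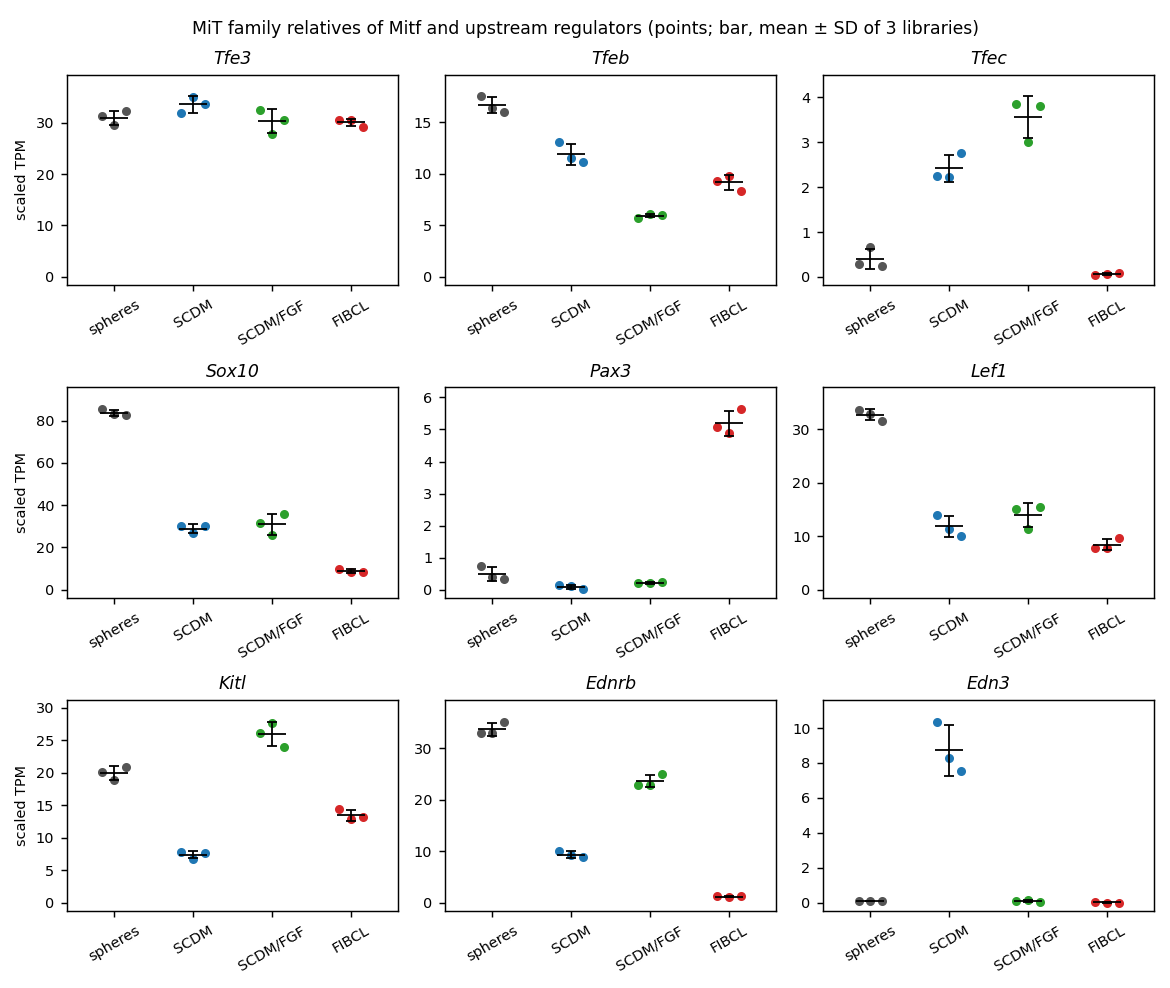
Scaled TPM (vertical axes, each with its own range) of the MiT family relatives Tfe3, Tfeb and Tfec, the factors Sox10, Pax3 and Lef1, and the signalling genes Kitl, Ednrb and Edn3 in the 3 libraries of each group; bars are the mean ± SD. Pax3 is above 4 scaled TPM in FIBCL only, Edn3 above 7 in SCDM only, and Sox10 is highest in spheres, at 82.5 to 85.4, and lowest in FIBCL, at 8.21 to 10.0.

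The genes that act upstream in melanocytes, on fate or on pigment production, were a list of 17, of which 13 could be tested. In FIBCL against SCDM, 3 were called higher and 9 lower (median −0.54), where 32.7% of all genes were called higher and 39% lower. Against SCDM/FGF 3 were higher and 7 lower (median −0.66), where 32.5% and 38.2% of all genes were. Against spheres 2 were higher and 9 lower (median −1.22), where 32.9% and 38.7% of all genes were. The medians of all genes were −0.07, −0.05 and −0.06 in this order. In SCDM against spheres 2 were higher and 9 lower (median −0.53), where 24.5% of all genes were higher and 25.8% lower. In SCDM/FGF against spheres 1 was higher and 7 were lower (median −0.49), where 25% and 25.4% of all genes were. As deposited the latter counts were 0 and 10 (median −0.72). The factors of this list did not move as a block in FIBCL.

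SOX10 and PAX3 are the neural crest factors that activate Mitf in melanoblasts, and SOX10 is also a factor of all peripheral glia. Sox10 was at 94.94 to 100.84 TPM in spheres, 28.50 to 31.95 in SCDM, 25.59 to 35.06 in SCDM/FGF, with 6.40 to 8.38 in FIBCL. It fell in FIBCL against SCDM by 1.60 on the log2 scale (adjusted p = 8.72e-08 in limma) and in SCDM against spheres by 1.50 (adjusted p = 4.76e-07). Between spheres and SCDM, Sox10 and Kit fell while the Mitf difference was 0.02.

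Pax3 was at 3.97 to 4.29 TPM in FIBCL, against 0.03 to 0.14 in SCDM, 0.20 to 0.25 in SCDM/FGF and 0.41 to 0.86 in spheres. It rose in FIBCL by 2.50 against SCDM (adjusted p = 3.19e-09 in limma) and by 2.06 against spheres (adjusted p = 1.86e-08). Mitf and Pax3 thus differed between FIBCL and the other groups in opposite directions. Lef1, a partner of beta-catenin and a regulator of Mitf, was at 37.55 to 39.73 TPM in spheres and 6.29 to 7.39 in FIBCL, a difference of −1.84 (adjusted p = 2.17e-07), and its difference from SCDM was −0.44 (adjusted p = 0.0121).

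Zeb2 and Snai2 are zinc finger factors of the neural crest that melanoblasts use. Zeb2 was at 62.15 to 74.04 TPM in spheres and 20.21 to 23.02 in FIBCL, and fell in FIBCL against SCDM by 0.54 (adjusted p = 0.000172 in limma). Snai2 was at 28.41 to 30.38 TPM in SCDM, 21.06 to 21.74 in spheres, 6.81 to 9.24 in SCDM/FGF, with 4.49 to 6.89 in FIBCL. Its difference between FIBCL and SCDM/FGF was −0.11 and not called (adjusted p = 0.454), and as deposited it was −0.38 and called (adjusted p = 0.0217).

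The ligands and their receptors were ordered differently. Kitl, the gene of KIT ligand, was at 21.55 to 24.87 TPM in spheres, 7.25 to 8.21 in SCDM, 23.59 to 27.47 in SCDM/FGF, with 9.97 to 12.02 in FIBCL. It was higher in SCDM/FGF than in SCDM by 1.68 on the log2 scale (adjusted p = 1.31e-08 in limma), where its receptor gene Kit was lower by a difference of −1.31. It was higher in FIBCL than in SCDM by 0.78 (adjusted p = 2.41e-06) and lower than in SCDM/FGF by −0.90 (adjusted p = 7.67e-07). Ligand and receptor were both lower in SCDM than in spheres, by −1.32 (adjusted p = 8.60e-08) and −1.43.

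Ednrb is the receptor, and Edn3 the ligand, of the endothelin signal that expands melanoblasts. Ednrb was at 37.67 to 41.75 TPM in spheres, 9.29 to 10.57 in SCDM, 22.75 to 24.47 in SCDM/FGF, with 0.85 to 1.02 in FIBCL. It fell in FIBCL against SCDM by 2.26 (adjusted p = 1.36e-10 in limma) and against spheres by 4.00 (adjusted p = 2.03e-12). Edn3 was at 7.95 to 10.87 TPM in SCDM and at or below 0.12 TPM in every other library. It was higher in SCDM than in spheres by 3.17 (adjusted p = 2.15e-09) and lower in SCDM/FGF than in SCDM by −3.18 (adjusted p = 1.90e-09). Mc1r, the melanocortin receptor of pigment cells, was at or below 0.13 TPM in every library and was not tested.

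Melanosomes are lysosome-related organelles. A list of 18 genes of melanosomes and of pigment cells more widely, none of them among the 7, was also followed. They are called melanosome genes here, though not all code for melanosome proteins. Of these, 14 could be tested. In FIBCL against SCDM, 6 were called higher and 5 lower (median 0.11), and as deposited 6 were higher and 7 lower (median −0.27). Of all genes tested, 32.7% were called higher and 39% lower there after rescaling. Against SCDM/FGF 7 were higher and 5 lower (median 0.33), where 32.5% and 38.2% of all genes were. Against spheres 7 were higher and 3 lower (median 0.28), where 32.9% and 38.7% of all genes were, or 4 and 6 as deposited (median −0.24). Several genes known for their part in pigment cells were near 0. Gpr143, a melanosomal receptor, was listed at 0 in all libraries, Slc45a2 and Oca2 were at or below 0.08 TPM, and Trpm1 was at or below 0.22 TPM.

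The melanosome genes that were called went in both directions, as did the calls over all genes. Rab32, a small GTPase of lysosome-related organelles, was at 38.92 to 42.96 TPM in SCDM, 20.05 to 23.37 in SCDM/FGF, 13.04 to 14.48 in spheres and 2.25 to 2.87 in FIBCL, a fall of 3.25 from SCDM to FIBCL (adjusted p = 4.41e-11 in limma). Its relative Rab38 was at 6.03 to 7.55 TPM in SCDM and 2.24 to 3.61 in FIBCL (−0.67, adjusted p = 0.010), but was higher in FIBCL than in spheres by 1.17 (adjusted p = 0.000249). Slc24a5, which codes for a cation exchanger of pigment cells, was not near 0 outside FIBCL. It was at 2.42 to 4.63 TPM in SCDM, 1.02 to 1.53 in spheres, 1.18 to 1.91 in SCDM/FGF and 0 to 0.23 in FIBCL (−1.80, adjusted p = 5.45e-06).

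Gpnmb, a relative of Pmel that macrophages and glia also express, was at 240.38 to 299.17 TPM in SCDM and 89.88 to 102.46 in FIBCL (−1.13, adjusted p = 4.82e-08 in limma). The 3 genes whose proteins tie melanosomes to the actin motor did not move together in FIBCL against SCDM. Mlph was at 1.86 to 2.14 TPM in FIBCL and 0.24 to 0.32 in SCDM (1.45, adjusted p = 4.49e-08). Rab27a was at 1.04 to 1.32 TPM in FIBCL and 1.91 to 3.10 in SCDM (−0.46, adjusted p = 0.0283). Myo5a, the motor gene, was at 49.13 to 55.10 TPM in FIBCL and 59.45 to 69.34 in SCDM (0.09, adjusted p = 0.330), and as deposited its difference was −0.31 (adjusted p = 0.00701). Against spheres, Rab27a and Myo5a were both called higher in FIBCL, by 0.58 (adjusted p = 0.009 in limma) and 0.35 (adjusted p = 0.00149). As deposited these differences were 0.30 and −0.19 and not called. Mlph was at 1.04 to 1.28 TPM in spheres, below its FIBCL values.

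Mreg, which codes for melanoregulin, was singled out after its values were seen. It was at 20.62 to 21.67 TPM in FIBCL and at or below 0.78 TPM in every other library. Its difference was 4.59 against SCDM (adjusted p = 1.14e-10 in limma), 4.60 against SCDM/FGF (adjusted p = 1.19e-10) and 4.31 against spheres (adjusted p = 2.12e-10). It was the largest difference of the melanosome list in FIBCL in each comparison.

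**Figure D4:**
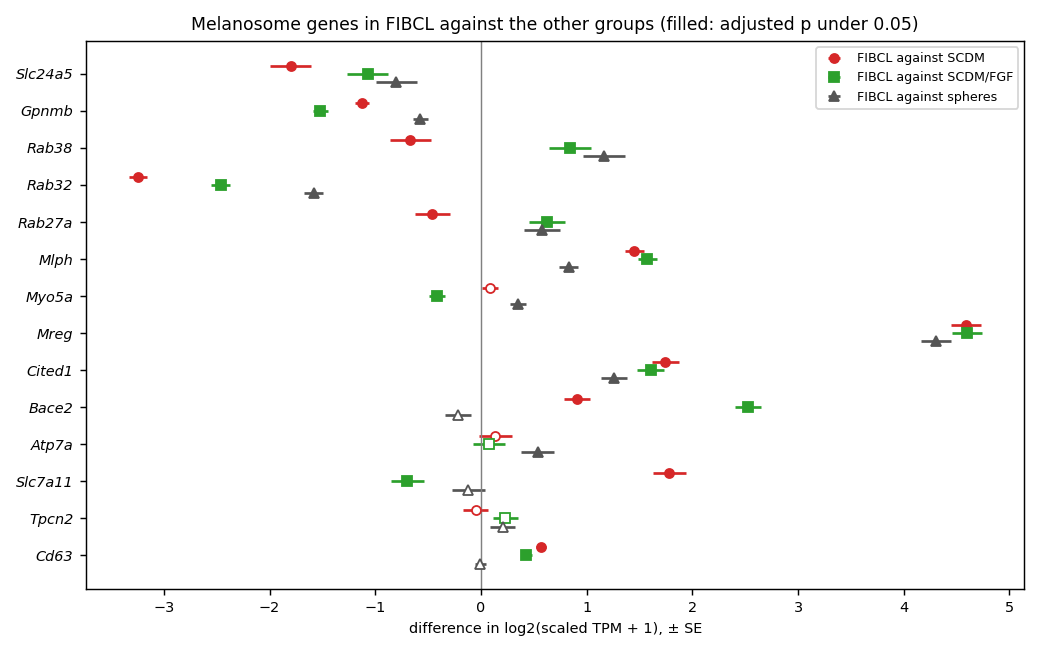
Difference in log2(scaled TPM + 1), with its SE (horizontal axis), of the 14 melanosome genes tested (vertical axis) in FIBCL against SCDM (circles), SCDM/FGF (squares) and spheres (triangles); filled points had an adjusted p under 0.05 in limma. Mreg stands apart at 4.31 to 4.60 and Rab32 is lowest, at −3.25 to −1.58.

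A list of 7 markers of strial intermediate cells, which shares Tyr, Dct and Mlana with the genes above and Ednrb with the upstream list, had 3 genes that could be tested. These were Kcnj10, Met and Ednrb, and all 3 were called lower in each differentiated group than in spheres and lower in FIBCL than in SCDM. Of all genes tested, 25.8% were called lower in SCDM than in spheres, 25.4% in SCDM/FGF and 38.7% in FIBCL. In FIBCL against SCDM the share called lower was 39%. The same 3 genes were all called higher in SCDM/FGF than in SCDM (median 0.78), where 21.8% of all genes were called higher. In FIBCL against SCDM/FGF all 3 were called lower (median −1.87), where 38.2% of all genes were. Kcnj10, the potassium channel gene of intermediate cells and of glia, was at 2.60 to 3.54 TPM in spheres, 0.72 to 0.81 in SCDM, 1.35 to 1.62 in SCDM/FGF, with 0.18 to 0.30 in FIBCL. Met, a receptor tyrosine kinase gene, was at 68.82 to 74.91 TPM in spheres and 4.91 to 5.06 in FIBCL. Kcnj13, another channel gene, was at or below 0.26 TPM in every library.

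Markers of other cells that use Mitf or Kit moved between the groups as well. The 14 macrophage markers summed to 612 to 760 scaled TPM in spheres, 5540 to 6080 in SCDM, 5645 to 6040 in SCDM/FGF, with 192 to 231 in FIBCL. All 14 were called lower in FIBCL than in SCDM (median −4.58) and higher in SCDM than in spheres (median 3.24). Of all genes tested, 39% were called lower in the first comparison and 24.5% higher in the second. Csf1r, the macrophage growth factor receptor gene, was at 102.93 to 123.36 TPM in SCDM, 5.10 to 7.80 in spheres and 0.13 to 0.45 in FIBCL. Between spheres and SCDM these markers rose while Mitf differed by 0.02. In FIBCL against spheres, where Mitf was lower, 12 of the 14 were called lower and 1 higher (median −1.61). The shares of all genes there were 38.7% lower and 32.9% higher. The one called higher was Cd68, a lysosomal protein gene named after its values were seen, at 125.73 to 143.32 TPM in FIBCL and 39.40 to 48.55 in spheres. The macrophage sum and Mitf were both lowest in FIBCL. The part of macrophages in the Mitf difference was not tested.

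Of 9 mast cell markers, only Gata2, which other cells also express, could be tested. The remaining 8 summed to 1.18 to 3.80 scaled TPM in spheres, 0.0756 to 0.314 in SCDM, 0.264 to 0.766 in SCDM/FGF, with 0 to 0.0957 in FIBCL. Cpa3, the mast cell carboxypeptidase, was at 0.36 to 1.38 TPM in spheres and listed at 0 in every SCDM and FIBCL library. These 8 markers were at or near 0 in FIBCL, where Kit was at 12.48 to 14.34 TPM. Gata2 was at 16.25 to 19.79 TPM in spheres, 2.66 to 8.95 in SCDM, 4.54 to 7.71 in SCDM/FGF, with 16.79 to 24.75 in FIBCL. In FIBCL against SCDM Gata2 was called higher, by 2.22 (adjusted p = 4.35e-05 in limma). It was called lower than in spheres in SCDM and in SCDM/FGF, by −1.54 and −1.18. The part of mast cells in the Kit differences was not tested.

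The 12 glial markers summed to 911 to 952 scaled TPM in spheres, 473 to 528 in SCDM, 423 to 477 in SCDM/FGF, with 66.1 to 69.4 in FIBCL, and 11 of them were called lower in FIBCL than in SCDM (median −2.90). In SCDM against spheres 9 of the 12 were called lower and 2 higher (median −1.32), where 25.8% of all genes were lower and 24.5% higher. The 12 neuronal markers summed to 25.1 to 25.6 in spheres, 19.6 to 22.7 in SCDM, 28.6 to 38.9 in SCDM/FGF, with 562 to 594 in FIBCL. All 9 that could be tested were called higher in FIBCL than in SCDM (median 4.95). Those not tested stayed low in FIBCL, with Dcx at 0 to 0.06 TPM, Elavl4 at 0.25 to 0.68 and Rbfox3 at 0.40 to 1.22. In SCDM they were at 0.02 to 0.09, 0 to 0.23 and 0 to 0.05 TPM. The 11 mesenchymal markers summed to 225 to 240 in FIBCL and 5956 to 6192 in SCDM, with 2 called higher and 9 lower (median −5.00). Of all genes tested in FIBCL against SCDM, 32.7% were called higher and 39% lower. Glial and mesenchymal markers fell beside Mitf, and neuronal markers rose beside Kit, in FIBCL against SCDM. These moves did not always go together: the glial sum was lower in SCDM than in spheres where Mitf differed by 0.02, and the neuronal sum was higher in FIBCL than in spheres where Kit was not called. Their part in either difference was not tested.

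**Figure D5:**
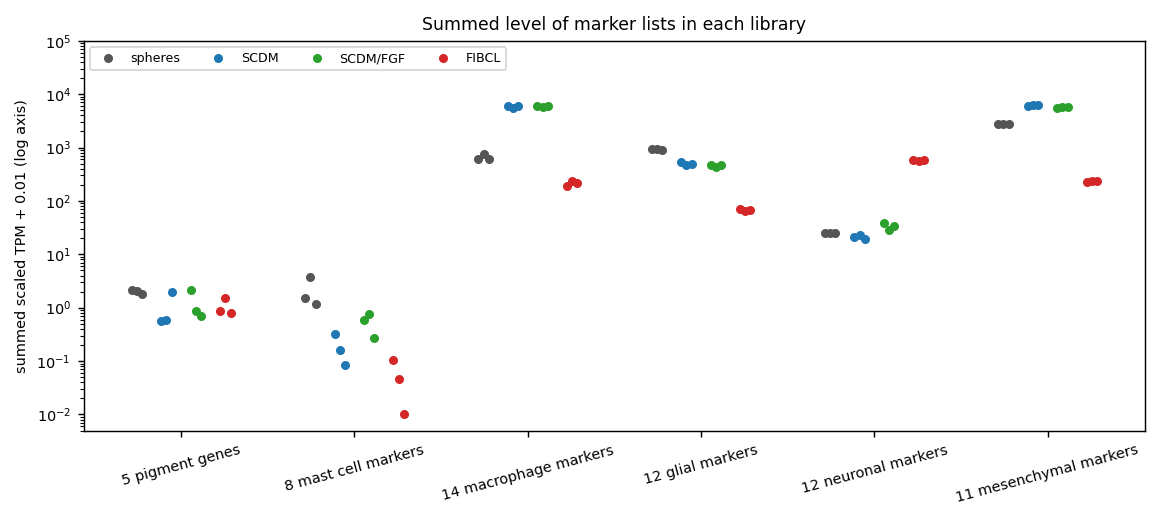
Summed scaled TPM, plus 0.01, of 6 marker lists (horizontal axis) in each library on a log axis, coloured by group. The 5 pigment genes stay between 0.562 and 2.16 before the 0.01 is added, the 8 mast cell markers reach 0 in 1 FIBCL library and overlap between FIBCL and SCDM, and macrophage, glial and mesenchymal sums are lowest and neuronal sums highest in FIBCL.

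The genes whose levels followed Mitf and Kit most closely were found by Pearson's r of log2(scaled TPM + 1) over the 12 libraries, among 11132 genes with a mean of at least 5 TPM. For Mitf they were Gbp2, an interferon-induced GTPase gene (r = 0.988), Serpina3f, a protease inhibitor gene (r = 0.987), and Nr3c1, the glucocorticoid receptor gene (r = 0.985). For Kit they were Morc2a (r = 0.978), Snap91, a clathrin assembly gene of synapses (r = 0.974), and Sncaip (r = 0.971). For Pmel the closest were Gm44965 (r = 0.802), Exoc7 (r = 0.786) and Ube3b (r = 0.749). The 12 libraries share 4 groups, so these values describe likeness of the group pattern.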

How the data were processed

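Poly(A) RNA of 12 libraries was sequenced, and the authors used SeqPrep and Sickle for trimming, TopHat for alignment and RSEM for quantification. The genome build was not given in the sources used here. Cufflinks is also listed in the submitters' processing notes. The deposited values are TPM with 2 decimals for 55487 genes, a unit inferred from the column sums, whereas the methods speak of fragments per kilobase. Reads per gene, and so depth and counting intervals, are unknown. The authors tested differences with EdgeR.

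Groups came from the sample labels. A gene was tested if 3 or more of the 12 libraries reached 1 TPM (16016 genes, with 3 of the 7 melanocyte genes). Each library was rescaled by the 30% trimmed mean log2 ratio over the 8434 genes that reached 5 TPM in all of them. Differences of log2(scaled TPM + 1) went into limma 3.58.1 in R 4.3.3 with a mean-variance trend, in 1 model of the 4 groups and 6 comparisons, two-sided, with Benjamini-Hochberg adjustment within each comparison. Separate cultures are implied by the label "biological", and p-values measure the spread between these libraries. Positions came from GENCODE M21 (GRCm38), where 55141 identifiers were found, and promoters from RefSeq.

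The genes, the lists of related genes and the tests were chosen with earlier results of these data known, and the motifs after the values were seen. Named genes were the 7 melanocyte genes, a set chosen from the lists by known role, and the 3 genes most alike each tested gene. Mreg, Cd68, Gata2, Dcx, Elavl4 and Rbfox3 were named in addition, after their values were seen. Cdk2 and Dgka were named for their overlap with Pmel. Alternatives changed the pseudocount, the limit on low values, the scaling, the libraries in the model, the variance trend and the threshold, added the replicate number as a block, or left out each library. Python 3.11.15 with pandas 2.3.3 and matplotlib 3.10.9 drew the tables and plots.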

Additional observations from a re-analysis of the deposited data

How the results depend on the processing

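The calls of Mitf and Kit at an adjusted p under 0.05 held under every alternative run, except for Kit between FIBCL and spheres, and leaving out any 1 library left the count of called melanocyte genes at 2, 2, 1, 1, 1 and 1 in the 6 comparisons, in the order FIBCL against SCDM, SCDM/FGF and spheres, SCDM and SCDM/FGF against spheres, and SCDM/FGF against SCDM. When a log2 difference of at least 1.5 was also required, the counts were 1 (Kit), 1 (Kit), 0, 0, 1 and 0 in that order, since Mitf and the smaller Kit differences lie below it. With no limit on low values, the count was 3 in FIBCL against SCDM and against SCDM/FGF (Kit, Mitf, Tyr in each), 3 in FIBCL against spheres (Mitf, Mlana, Tyr), 2 in SCDM against spheres (Dct, Kit), 3 in SCDM/FGF against spheres (Dct, Kit, Mlana) and 1 in SCDM/FGF against SCDM (Kit), because very low genes then entered the test. Of all 31047 genes then tested, 41.4%, 40.6%, 41.3%, 26.1%, 26.1% and 21.7% were called in the order above. With only the 2 groups in the model, the count in FIBCL against spheres was 2 (Kit, Mitf).

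Without rescaling, the Kit difference between FIBCL and spheres turned to −0.27, the uncalled Mitf differences to −0.10 (SCDM against spheres), −0.17 (SCDM/FGF against spheres) and −0.0651 (SCDM/FGF against SCDM), and that of Pmel in SCDM/FGF against spheres to −0.0496. With 1 library left out, uncalled differences changed sign: Mitf ran from −0.0483 to 0.102 in SCDM against spheres, from −0.0276 to 0.0774 in SCDM/FGF against spheres and from −0.0696 to 0.0814 in SCDM/FGF against SCDM. Pmel ran from −0.21 to 0.14 in FIBCL against SCDM, from −0.22 to 0.25 in SCDM/FGF against spheres and from −0.0208 to 0.49 in SCDM/FGF against SCDM. With 1 library left out the called differences kept their sign, with Mitf between −1.40 and −1.18 in the FIBCL comparisons.

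Libraries with the same replicate number did not deviate together (r from −0.12 to 0.0976 over 18 pairs, and from −0.07 to 0.120 over 36 pairs with different numbers). The values were centred on group means of 3 libraries, so this check cannot exclude a shared dissection or batch. The replicate block changed no call, with counts of 2, 2, 1, 1, 1 and 1. The depth is unknown, which limits every statement on Tyr, Dct, Mlana and Pmel.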

Other observations

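Genes of the machinery that sorts cargo to lysosome-related organelles, a list of 16 whose loss lightens the coat or hair in many cases, were measured in all groups. All 16 could be tested. In FIBCL against SCDM, 7 were called higher and 1 lower (median 0.16, against −0.07 for all genes), but as deposited 5 were higher and 9 lower (median −0.23), so the direction of this list depended on the scaling. Against spheres 7 were higher and 4 lower (median 0.26), and as deposited 3 were higher and 8 lower (median −0.27). Of all genes tested, 32.7% were called higher and 39% lower against SCDM after rescaling, and 32.9% and 38.7% against spheres. The list summed to 620 to 654 scaled TPM in FIBCL and 454 to 486 in SCDM, and as deposited to 486 to 531 and 480 to 511.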
